A study of Homo sapiens with 20 samples.

Results

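The 7 genes described here belong to the interleukin-1 (IL-1) family and its receptors. They are IL1A and IL1B, which encode IL-1 itself, their antagonist IL1RN, the receptor chains IL1R1 and IL1RAP, and the related ligands IL18 and IL33. All probes that the array annotation pairs with these symbols were taken, which gave 12 probes of the 47319 in the table. RNA came from 5 established human triple-negative breast cancer (TNBC) cell lines, which grow without the receptors targeted by hormone and HER2 therapy. Cells of MDA-MB-231, BT549, MDA-MB-157, MDA-MB-468 and SUM149 were kept 24 h without serum. They then received 5% of a pool of wound-healing fluids (WHF), drained from patients after breast surgery, for 48 h, or were left untreated. There were 2 WHF-treated and 2 untreated cultures of each line, lettered A and B, on 20 Illumina beadchip arrays. All groups share the first 24 h without serum, and only the WHF-treated ones then received a fluid. No serum or other fluid served as a comparison. What is particular to WHF therefore cannot be told apart from an end of the starvation. Each line stands for itself alone as a model of TNBC.

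IL-1α (from IL1A) and IL-1β (from IL1B) bind the receptor chain IL1R1, which then recruits the accessory chain IL1RAP, and the pair signals through the adaptor MYD88 and IRAK kinases to NF-κB. IL1RN encodes an antagonist that occupies IL1R1 without recruiting IL1RAP, and a soluble form of IL1RAP lacks the membrane anchor. IL-18 and IL-33 are relatives with receptors of their own, IL-33 also using IL1RAP, and epithelial cells store IL-1α and IL-33 as alarmins that are released on damage.

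IL1A and IL1B are transcribed from the same strand of chromosome 2. Their promoters are shown because both genes were detected in the same pair of untreated lines, while IL1B and not IL1A was detected in BT549 after WHF. The 250 bases before a start site, from RefSeq on GRCh38.p14, are given 5′ to 3′ on the minus strand, with capitals for the motifs searched. IL1A has 2 listed start sites, and the window of the one farther upstream is printed, chr2:112784494-112784743. The IL1B window is chr2:112836780-112837029.
IL1A: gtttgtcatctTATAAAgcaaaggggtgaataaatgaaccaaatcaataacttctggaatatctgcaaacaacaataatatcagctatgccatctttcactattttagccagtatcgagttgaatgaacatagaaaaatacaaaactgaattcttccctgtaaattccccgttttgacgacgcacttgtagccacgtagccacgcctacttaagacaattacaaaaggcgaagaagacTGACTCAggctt
IL1B: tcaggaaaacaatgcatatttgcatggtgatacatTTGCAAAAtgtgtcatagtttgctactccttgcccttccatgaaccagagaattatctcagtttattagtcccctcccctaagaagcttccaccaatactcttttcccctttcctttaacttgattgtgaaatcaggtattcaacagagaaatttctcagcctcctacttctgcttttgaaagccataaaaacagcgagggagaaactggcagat
Motifs of 4 kinds were searched on both strands, and no matches overlapped in these windows. The AP-1 letters TGANTCA lay at positions -12 to -6 of the IL1A window and in no place of the IL1B window, and 6.57% of 35114 windows of all genes held them. The C/EBP letters TTNNGCAA lay on the opposite strand at -215 to -208 of the IL1B window, against 9.05% of all windows. The TATA letters TATAAA lay at -239 to -234 of the IL1A window, which is not their usual place, against 10.7% of all windows. The loose NF-κB pattern, GGG and CC with 5 bases of any kind between them, held by 54.4% of all windows, was in neither. A match of letters is a description of the sequence and does not show that a factor binds.

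Each probe gives a fluorescence signal and a detection p-value, the share of negative control probes at least as bright. A probe was taken as detected on an array at a detection p under 0.05. Values below are log2 signals after background correction, quantile normalisation and an offset of 16, so 1 unit is a 2-fold change, and they are compared only within a probe. Tests across all probes used limma, with Benjamini-Hochberg adjusted p-values, on the 21189 probes detected on at least 10 of the 20 arrays. A response was called at an adjusted p under 0.1 and a change of more than 2-fold. For members below that filter, the fit over all 47319 probes is given and named. The arrays are bulk samples, so fewer cells with a transcript and less transcript per cell cannot be told apart. Each line's WHF-treated and untreated arrays shared a chip. Of the lines, MDA-MB-468 and SUM149 shared a chip, as did BT549 and MDA-MB-157, and for all other pairs of lines the line and the chip cannot be told apart.

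The number of detected probes ranged between 19693 and 22456 over the WHF-treated arrays and between 20793 and 22865 over the untreated ones. The lowest was WHF-treated SUM149 B. The WHF-treated SUM149 arrays also had the lowest correlation between replicates (r = 0.9741, against 0.9865 to 0.9933 in the other WHF-treated pairs). The standard errors below share 1 estimate of the spread over all groups for each probe. Of 10 line identity markers, CDH1 was detected on all arrays of MDA-MB-468 and SUM149 and on 1 other, an untreated MDA-MB-157 array, and RB1 was not detected in BT549 and MDA-MB-468. VIM, EGFR and ERBB2 were detected on all 20 arrays, PGR on both arrays of each treatment in MDA-MB-157 alone, and ESR1 on those of MDA-MB-468 and SUM149, at 7.0 and 7.41 with WHF and 6.87 and 7.20 without. Of 16 leukocyte genes, PTPRC, TYROBP, FCER1G and CD3E were detected on 0 of 20 arrays, and CD14, CD68 and FCGR3B on all 20. The others in that list were detected on some arrays, untreated ones among them, and genes of the list that changed with WHF are given below.

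IL1A was a trait of certain lines and did not pass the test for a response in any of them. MDA-MB-231 and SUM149 had the probe above background on 4 of 4 arrays each, and the other 3 lines on none. In MDA-MB-231 it stood at 13.16 and 13.10 with WHF, against 13.03 and 13.01 without. In SUM149 it stood at 14.19 and 12.86 with WHF, against 13.08 and 12.60 without. In MDA-MB-231 the values lay close together, with both WHF-treated ones just above, while in SUM149 culture A with WHF was the highest and culture B with WHF lay among the untreated ones. The change was 0.11 in MDA-MB-231 (standard error 0.289, adjusted p = 0.912) and 0.68 in SUM149 (standard error 0.289, adjusted p = 0.164), both from the fit over all probes. In SUM149 it rested on WHF culture A: without WHF culture B it was 1.35 (adjusted p = 0.000418) and without WHF culture A 0.02.

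Among untreated cells, IL1A in MDA-MB-231 was at least 165-fold above BT549, at least 181-fold above MDA-MB-157 and at least 172-fold above MDA-MB-468. Such lower bounds set the mean of the brighter line against, per array, the dimmest detected probe. On the shared chip, SUM149 was at least 152-fold above MDA-MB-468 (adjusted p = 2.35e-11). MDA-MB-231 and SUM149, side by side at 13.02 ± 0.01 and 12.84 ± 0.34 (SD, n = 2 each), did not differ beyond their spread (difference 0.18, standard error 0.289, adjusted p = 0.777). Differences between untreated lines were common on these arrays, where the F test among them passed for 50.7% of all probes. By pairs, 25% of tested probes were called between MDA-MB-231 and SUM149, 25.4% between MDA-MB-231 and BT549, 26.5% between MDA-MB-231 and MDA-MB-157 and 28% between MDA-MB-231 and MDA-MB-468. The share was 26.7% between MDA-MB-468 and SUM149, 27.4% between BT549 and MDA-MB-157, 28.3% between BT549 and SUM149, 30.1% between BT549 and MDA-MB-468, and 29.9% between MDA-MB-157 and either MDA-MB-468 or SUM149.

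IL1B, the secreted and caspase-1-processed ligand, was present in the same lines as IL1A and rose in BT549 and SUM149. In BT549 it stood at 8.98 and 7.46 with WHF, against 5.13 and 5.01 without, and it was detected in both WHF-treated cultures and in no untreated one. The groups did not overlap, and culture A with WHF was well above culture B. The fitted change was 3.15 (standard error 0.362, adjusted p = 2.19e-05), and because untreated cells were not above background, the bound was at least 5.95-fold. Without WHF culture A the fitted change was 2.39 (adjusted p = 0.000155). The probe passed the filter at exactly 10 arrays, 2 of them WHF-treated BT549, so its place among the tested probes is itself no support. Over all probes the BT549 value had an adjusted p of 5.82e-05, and in the authors' normalised intensities, which keep the background, the change was 1.78.

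In SUM149 IL1B stood at 14.29 and 14.00 with WHF, against 12.67 and 11.95 without. Both WHF-treated cultures were above both untreated ones, and the change of 1.84 (standard error 0.362, adjusted p = 0.00189) was 3.57-fold. In MDA-MB-231 the values were 13.70 and 13.52 with WHF, against 12.78 and 13.54 without. Here the groups overlapped, with untreated culture A alone at the low end, and the change of 0.45 (standard error 0.362) had an adjusted p of 0.432. MDA-MB-157 and MDA-MB-468 showed IL1B on no array. At baseline MDA-MB-231 stood at 13.16 ± 0.53 and SUM149 at 12.31 ± 0.51 (SD, n = 2 each), a 1.80-fold difference short of the fold minimum (adjusted p = 0.0654). SUM149 was at least 105-fold above MDA-MB-468, its chip partner, and MDA-MB-231 between 182-fold and 200-fold above the 3 lines without the transcript, again as lower bounds.

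IL1RN, the antagonist, rose in SUM149 and MDA-MB-468, the lines in which its brightest probe was detected. This probe, ILMN_1774874, stood in SUM149 at 11.43 and 11.22 with WHF, against 9.45 and 9.59 without. In MDA-MB-468 it stood at 7.79 in both WHF-treated cultures, against 6.51 and 6.95 in untreated ones. No value of a WHF-treated culture overlapped with an untreated one in either line. Over all probes, the change was 1.81 in SUM149, 3.50-fold (standard error 0.146, adjusted p = 4.5e-06), and 1.06 in MDA-MB-468, 2.09-fold (standard error 0.146, adjusted p = 0.00143). Without background correction the MDA-MB-468 change was 0.65, under 2-fold (adjusted p = 0.00232). MDA-MB-231, BT549 and MDA-MB-157 did not have this probe above background on any array. Of all 47319 probes, 5.53% were called in SUM149 and 0.964% in MDA-MB-468, with 3.39% in MDA-MB-231, 5.58% in BT549 and 1.43% in MDA-MB-157.

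The other IL1RN probes were dimmer. ILMN_1806249, annotated to the same transcript as the first, NM_173843, was detected on 4 of 20 arrays, 1 of them MDA-MB-157 with WHF (5.66) and the others SUM149. It stood at 6.36 and 6.16 in SUM149 with WHF, against 5.26 and 5.87 without. It was higher in both WHF-treated cultures, but its change of 0.70 was under 2-fold (adjusted p = 0.0564). ILMN_1689734, annotated to NM_173842, was detected on 1 array, SUM149 with WHF. Untreated SUM149 stood 6.92-fold above its chip partner MDA-MB-468 in ILMN_1774874 (adjusted p = 1.63e-09). In SUM149 IL1B and IL1RN probe ILMN_1774874 both rose, whereas in BT549 IL1B rose with no IL1RN probe above background. The IL1RN calls in SUM149 and MDA-MB-468 rest on ILMN_1774874 alone.

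**Figure D1:**
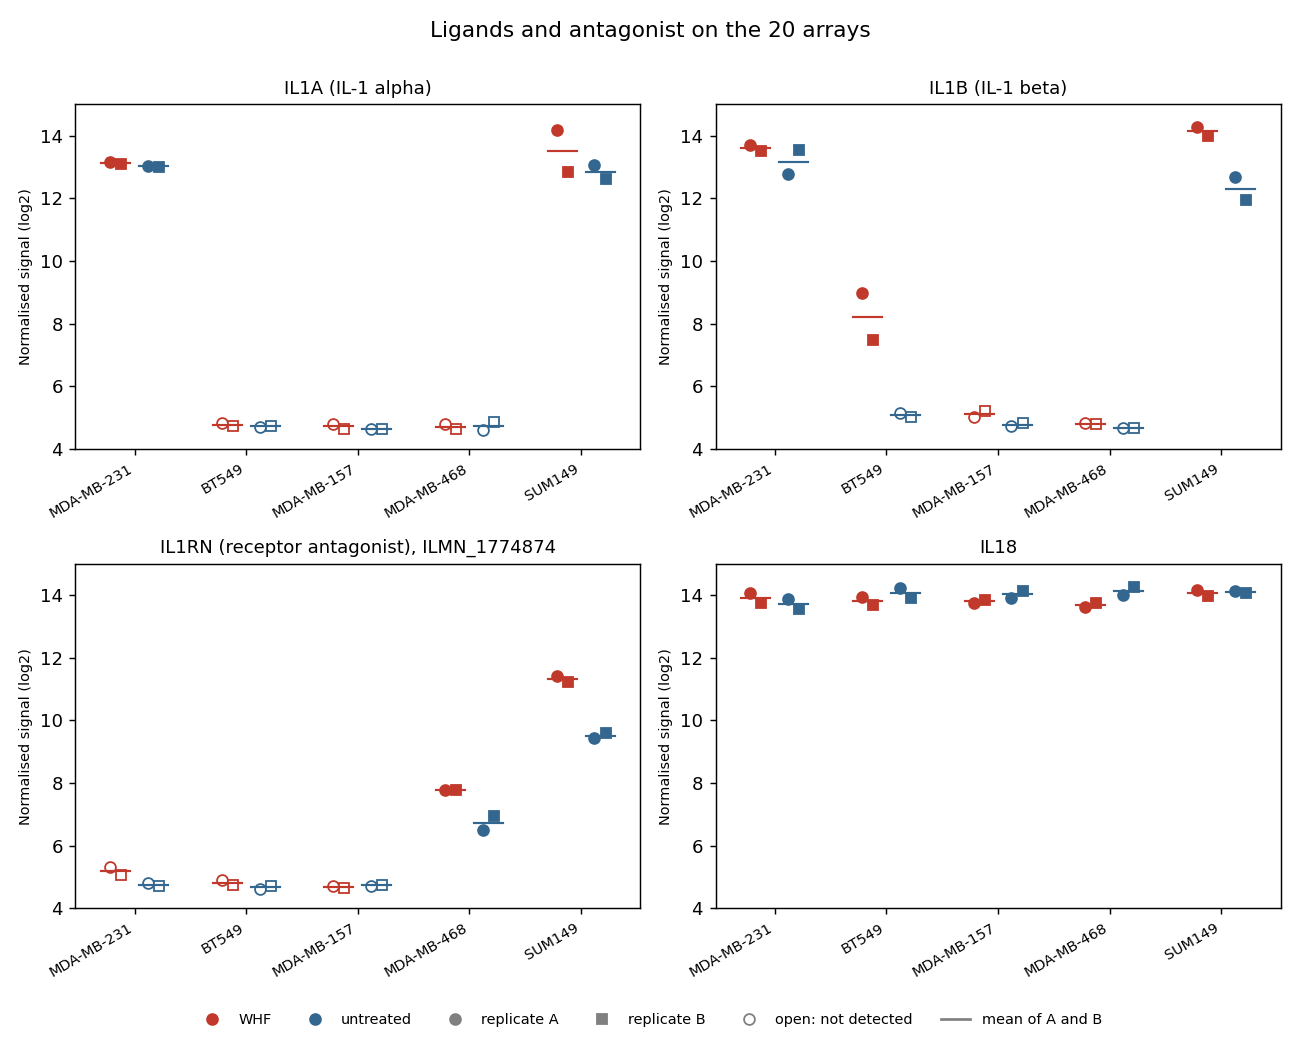
Normalised log2 signal (y axis) of IL1A, IL1B, IL1RN and IL18 in each cell line (x axis), with WHF-treated cultures in red left of untreated ones in blue, replicate A as circles, replicate B as squares, open symbols where the probe was not detected and bars for the mean of 2. IL1A and IL1B are near the floor outside MDA-MB-231 and SUM149 except for IL1B in WHF-treated BT549, and IL18 is between 13.56 and 14.27 on all 20 arrays.

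IL18, an IL-1 relative that acts with IL-12 on T and natural killer cells, was detected on all 20 arrays and was called in no line. Its log2 signal ranged between 13.63 and 14.16 over the WHF-treated arrays and between 13.56 and 14.27 over the untreated arrays. The bead signals were 11980 to 18570 with WHF and 11650 to 26060 without, where the table's maximum was 67692. This single probe lay between percentiles 98.7 and 99.3 of its array. Whether its signal still follows the amount of RNA at this brightness was not tested. The change with the smallest adjusted p was in MDA-MB-468, where both WHF-treated cultures, at 13.63 and 13.74, were below both untreated ones, at 14.02 and 14.27. It was -0.46 (standard error 0.180, adjusted p = 0.199). The 5 untreated lines did not pass the F test for a difference (adjusted p = 0.200), whereas 86.9% of tested probes did. With median scaling, and with a variance trend and robust fit, this test passed (adjusted p = 0.0766 and 0.0588).

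IL33, a nuclear alarmin, was detected in SUM149 by probe ILMN_1809099. It stood at 6.85 and 6.87 with WHF, against 6.57 and 7.22 without, so the untreated values enclosed the WHF-treated ones, and the change was -0.03 (standard error 0.208, adjusted p = 0.964 over all probes). The only other detection was in 1 WHF-treated MDA-MB-231 array, at 6.13. Untreated SUM149 was at least 2.46-fold above MDA-MB-468 on the shared chip (adjusted p = 3.24e-06). In 2 of 6 alternatives of the processing the difference fell under 2-fold, with MDA-MB-468 minus SUM149 at -0.974 where it was smallest. A second probe, ILMN_2052924, was detected on 0 arrays.

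IL1R1, the signalling receptor chain, rose in MDA-MB-157 and MDA-MB-468. In MDA-MB-157 it stood at 8.39 and 8.10 with WHF, against 7.16 and 7.08 without. In MDA-MB-468 it stood at 7.38 and 7.34 with WHF, against 5.99 and 6.56 without. Neither line had overlapping groups, and in MDA-MB-468 the untreated cultures were the ones that differed from each other. The changes were 1.13 (2.18-fold, standard error 0.224, adjusted p = 0.00834) and 1.09 (2.12-fold, standard error 0.224, adjusted p = 0.0138). Both lie near the 2-fold limit. In the authors' normalised intensities, which keep the background, they were 0.77 (adjusted p = 0.00153) and 0.58 (adjusted p = 0.0172), without WHF culture A the adjusted p was 0.121 in MDA-MB-157 and 0.126 in MDA-MB-468, and without untreated culture A 0.208 in MDA-MB-468.

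In BT549 and MDA-MB-231 the IL1R1 change had the opposite sign and was not called. BT549 stood at 8.54 and 8.71 with WHF, against 9.07 and 8.98 without, a change of -0.40 (adjusted p = 0.212). MDA-MB-231 stood at 5.98 and 6.51 with WHF, against 6.59 and 7.04 without, a change of -0.57 (adjusted p = 0.0928) that was under 2-fold. WHF-treated cultures were below untreated ones in both lines. SUM149 had IL1R1 above background on no array, although it had the ligands, so no change can be read there. Untreated levels ran in the order BT549 at 9.02 ± 0.06, MDA-MB-157 at 7.12 ± 0.06, MDA-MB-231 at 6.82 ± 0.32 and MDA-MB-468 at 6.27 ± 0.40 (SD, n = 2 each), with SUM149 below background. BT549 was 3.74-fold above MDA-MB-157 on the shared chip (adjusted p = 3.8e-06). MDA-MB-157 and MDA-MB-231 did not differ beyond their spread (adjusted p = 0.282), and MDA-MB-231 was 1.46-fold above MDA-MB-468, under the fold minimum (adjusted p = 0.0556).

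**Figure D2:**
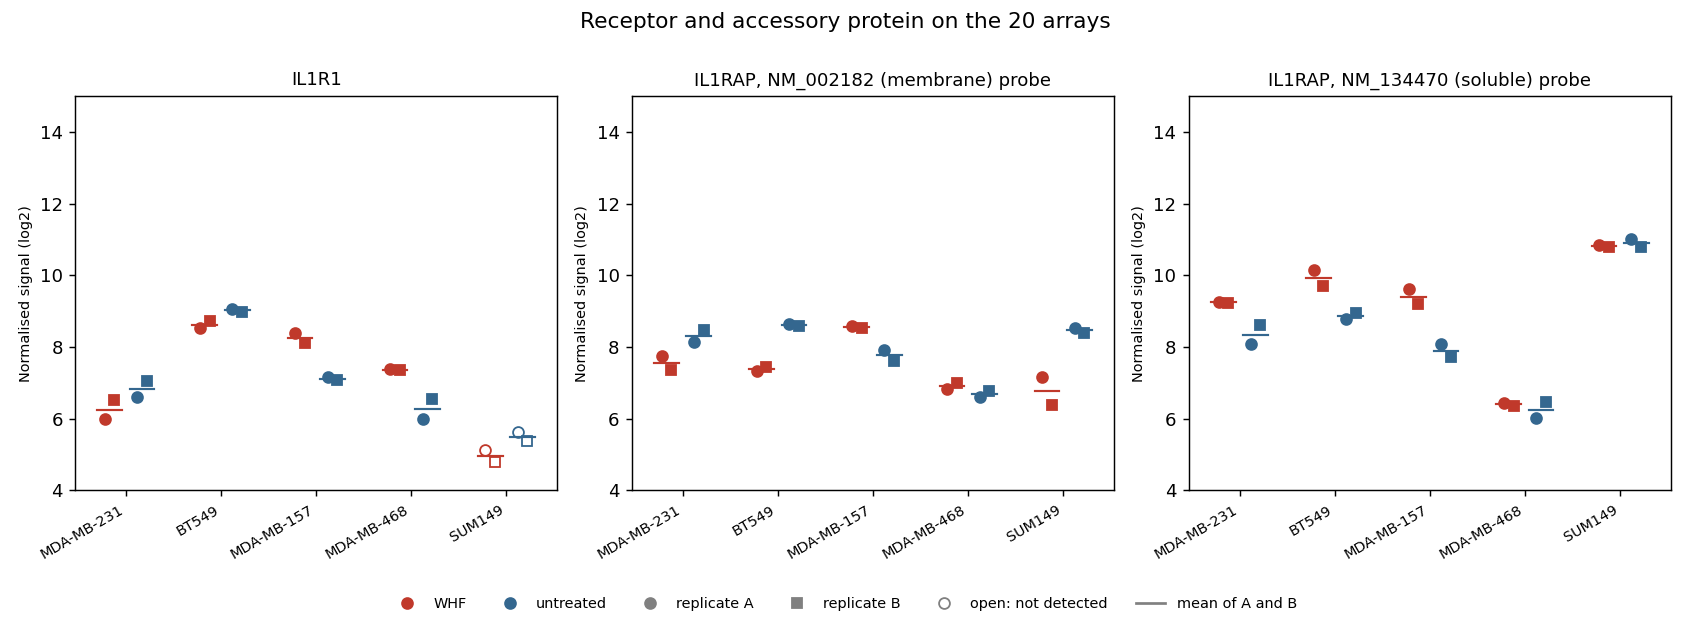
Normalised log2 signal (y axis) of IL1R1 and of both tested IL1RAP probes in each cell line (x axis), with WHF-treated cultures in red left of untreated ones in blue, replicate A as circles, replicate B as squares, open symbols where not detected and bars for the mean of 2. IL1R1 is higher with WHF in MDA-MB-157 and MDA-MB-468, and the 2 IL1RAP probes separate in opposite directions in MDA-MB-231 and BT549.

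IL1RAP, the accessory chain, was read by 2 tested probes that the annotation assigns to different transcripts, and they responded differently. ILMN_1686884 is annotated to NM_002182, which encodes the membrane form, and ILMN_2357062 to NM_134470, which encodes the soluble form. Where on the transcripts these probes lie was not examined here, so the names rest on the annotation. The membrane-form probe fell in SUM149 and BT549. In SUM149 it stood at 7.15 and 6.38 with WHF, against 8.54 and 8.39 without. In BT549 it stood at 7.32 and 7.45 with WHF, against 8.65 and 8.59 without. No groups overlapped. It fell by 1.70 on the log2 scale in SUM149, 3.25-fold (standard error 0.222, adjusted p = 7.9e-05), and by 1.24 in BT549, 2.36-fold (standard error 0.222, adjusted p = 0.000774). In MDA-MB-231 it stood at 7.75 and 7.36 with WHF, against 8.13 and 8.46 without, a change of -0.74 under 2-fold (adjusted p = 0.0296). MDA-MB-157 gave the opposite sign, 8.58 and 8.51 with WHF, against 7.93 and 7.60 without, a change of 0.79 that was also under 2-fold (adjusted p = 0.0526).

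The soluble-form probe rose in MDA-MB-157 and BT549. In MDA-MB-157 it stood at 9.61 and 9.20 with WHF, against 8.08 and 7.71 without, a change of 1.51 (2.86-fold, standard error 0.220, adjusted p = 0.000889). In BT549 it stood at 10.16 and 9.70 with WHF, against 8.77 and 8.94 without, a change of 1.08 (2.11-fold, standard error 0.220, adjusted p = 0.00201). All WHF-treated cultures of these lines were above the untreated ones. MDA-MB-231 moved by 0.90, under 2-fold (adjusted p = 0.0108), at 9.26 and 9.23 with WHF, against 8.09 and 8.60 without. SUM149 stood at 10.84 and 10.78 with WHF, against 11.00 and 10.78 without, and its groups overlapped. MDA-MB-468 did not pass the test with either probe (adjusted p = 0.669 and 0.799). At baseline the soluble-form probe was 25-fold higher in SUM149 than in MDA-MB-468 on their shared chip (adjusted p = 1.17e-10), and the membrane-form probe 3.45-fold (adjusted p = 6.35e-06). A further probe of NM_134470, ILMN_1793870, was detected on 5 of 20 arrays, 4 of them SUM149, and was called in no line (adjusted p = 0.0726 in BT549 and 0.500 in SUM149). In MDA-MB-157, where ILMN_2357062 was called, ILMN_1793870 was above background on no array, and in BT549 on 1. The 2 probes annotated to the soluble-form transcript thus differed in detection, and the name soluble-form probe rests on the annotation of ILMN_2357062 alone.

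The responses of the 2 probes were then set against each other within each line, in limma's test of differential exon usage over 3328 genes with 2 or more tested probes, chosen after the single responses were seen. The soluble-form probe gained on the membrane-form probe by 2.32 on the log2 scale in BT549 (adjusted p = 1.27e-05), by 1.64 in MDA-MB-231 (adjusted p = 0.00112) and by 1.62 in SUM149 (adjusted p = 0.000765). Between the same letters, the gain was 2.73 and 1.91 in BT549, 1.55 and 1.74 in MDA-MB-231 and 1.22 and 2.01 in SUM149, so the sign was the same at both letters. In MDA-MB-157 it was 0.73 (adjusted p = 0.743) and in MDA-MB-468 -0.08 (adjusted p = 0.999). Of all genes so tested, 10.3% passed in BT549, 7.75% in MDA-MB-231, 12.6% in SUM149, 0.962% in MDA-MB-157 and 0.451% in MDA-MB-468. The gain was composed differently, as in BT549 one probe rose and the other fell, while in SUM149 the membrane-form probe alone was called.

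**Figure D3:**
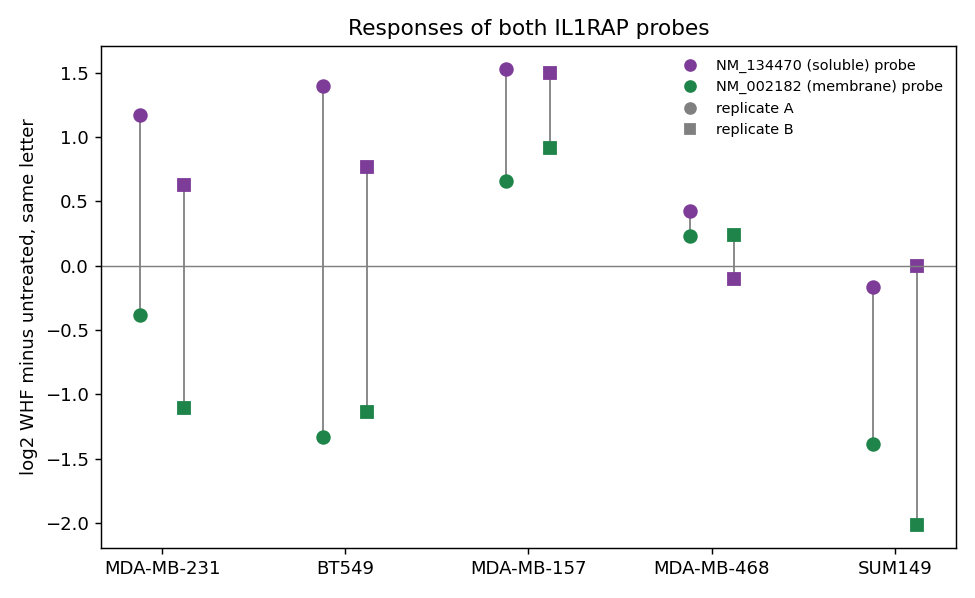
Difference in log2 signal, WHF-treated minus untreated culture of the same letter (y axis), for the probes annotated to the soluble form (purple) and the membrane form (green) of IL1RAP in each line (x axis), with circles for A and squares for B, joined by a grey line. The soluble-form probe lies above the membrane-form probe at both letters in MDA-MB-231, BT549, MDA-MB-157 and SUM149, and the order turns between the letters in MDA-MB-468.

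Counted by line, BT549 had 3 of 5 tested member probes called, against 10.9% of all tested probes, and SUM149 had 2, against 10.4%. MDA-MB-157 had 2, against 2.39% of all probes, MDA-MB-468 had 1, against 1.6%, and MDA-MB-231 had 0, against 6.64%. With so few members these counts are a description. In BT549, 2 of the called probes belong to the same gene, IL1RAP. The other, IL1B, reached the filter of 10 arrays only with the 2 WHF-treated BT549 arrays, so its place in this count is no support. IL1B was called in BT549 and SUM149, IL1R1 in MDA-MB-157 and MDA-MB-468, and IL1RAP in BT549 and SUM149 (membrane-form probe) and in BT549 and MDA-MB-157 (soluble-form probe). IL1RN ILMN_1774874, outside the 5 tested probes, was called in SUM149 and MDA-MB-468 over all probes.

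**Figure D4:**
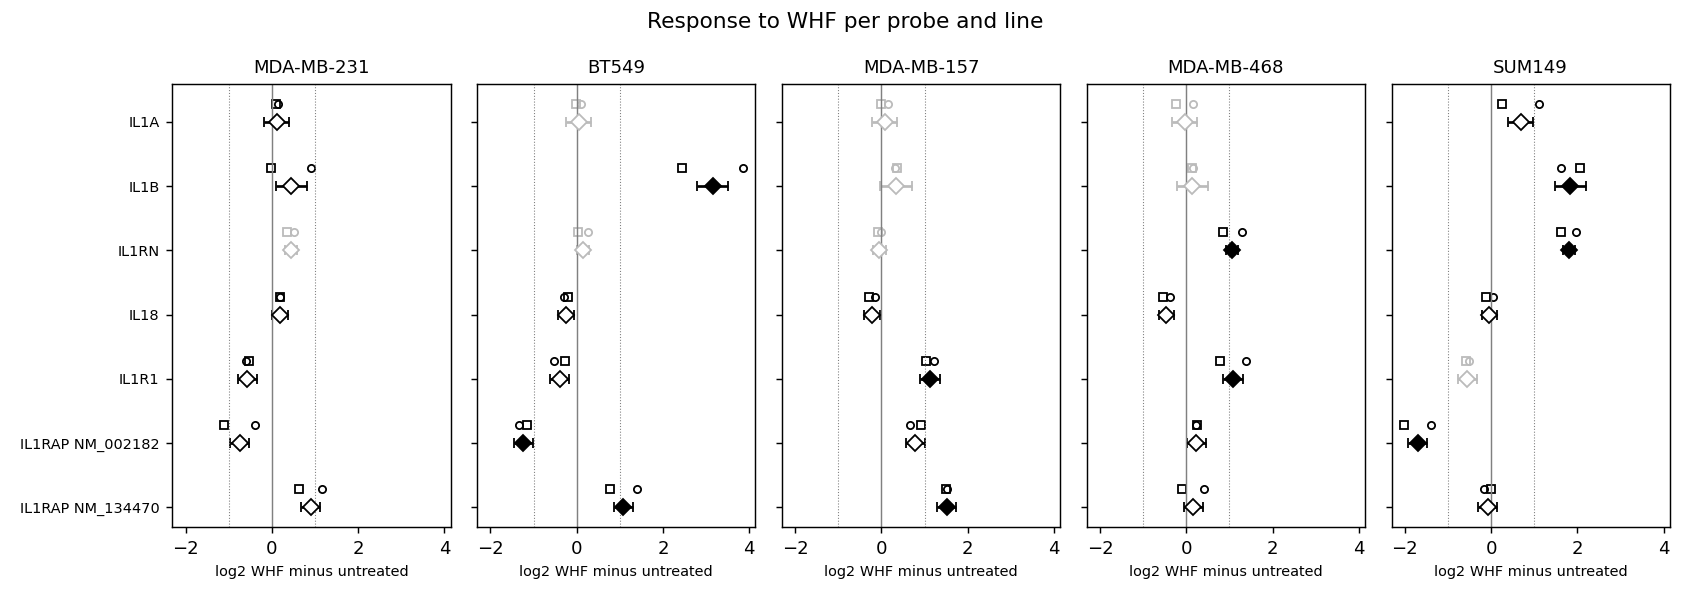
Fitted log2 change, WHF-treated minus untreated (x axis, diamonds with standard errors), for 7 member probes (y axis) in each line, with the difference of the A cultures as circles and of the B cultures as squares just above. Filled diamonds were called, grey symbols mark probes detected on no array of that line, dotted lines mark 2-fold, and IL1B in BT549 at 3.15 is the farthest from 0.

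The responses differed between lines for these genes. An F test for unequal responses among the lines (the interaction of line and WHF) gave F = 12.7 for IL1B (adjusted p = 0.00175), 15.6 for IL1R1 (adjusted p = 0.000812), 21.5 for the membrane-form IL1RAP probe (adjusted p = 0.000251) and 9.02 for the soluble-form probe (adjusted p = 0.00559). Of all tested probes, 41.1% passed this test. IL1B was a tested probe only through the 2 WHF-treated BT549 arrays, so its place among them is no support. Its F test also passed in all 8 alternatives of the processing, one of them without the filter (adjusted p from 0.000441 to 0.00364). Over all probes, of which 20.8% passed, IL1RN ILMN_1774874 gave F = 26.7 (adjusted p = 0.000217). IL18 and IL1A did not pass (adjusted p = 0.292 and 0.697). These tests include lines in which a probe was at background on every array, which were MDA-MB-157 and MDA-MB-468 for IL1B, SUM149 for IL1R1, MDA-MB-231, BT549 and MDA-MB-157 for IL1RN, and BT549, MDA-MB-157 and MDA-MB-468 for IL1A.

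Within chips, 17.5% of tested probes responded differently between BT549 and MDA-MB-157 and 21.4% between MDA-MB-468 and SUM149. IL1B was at background in MDA-MB-157 and MDA-MB-468, so the size of a difference from these lines cannot be read. The IL1RN response was lower in MDA-MB-468 than in SUM149, with a difference of -0.74 (standard error 0.207, adjusted p = 0.0468 over all probes). The IL1R1 response was lower in BT549 than in MDA-MB-157, with a difference of -1.52 (standard error 0.317, adjusted p = 0.00629). For the membrane-form IL1RAP probe the difference was -2.02 for BT549 minus MDA-MB-157 (adjusted p = 0.00101) and 1.94 for MDA-MB-468 minus SUM149 (adjusted p = 0.00106). For the soluble-form probe it was -0.43 (standard error 0.311, adjusted p = 0.418) and 0.24 (standard error 0.311, adjusted p = 0.662), so these pairs were not shown to differ. Over the 5 lines as a block, no member was called at an adjusted p under 0.1, against 0.0755% of all tested probes. IL1B was a tested probe only through the 2 WHF-treated BT549 arrays. The mean IL1B change was 1.18 (standard error 0.423, unadjusted p = 0.0234, adjusted p = 0.203; 19.3% of all tested probes had an unadjusted p under 0.05), the soluble-form IL1RAP change 0.71 (unadjusted p = 0.0164, adjusted p = 0.184) and the membrane-form change -0.53 (adjusted p = 0.428).

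Some genes of the leukocyte list changed with WHF, in lines with and without a change of IL1B or IL1RN. CD14, the co-receptor for lipopolysaccharide, rose in SUM149 to 11.84, against 9.42 untreated (difference 2.41, adjusted p = 0.000432 over all probes), and in MDA-MB-468 to 11.93, against 10.44 (difference 1.49, adjusted p = 0.0443). CD68, a lysosomal protein of macrophages and other cells, was higher with WHF by 1.01 in BT549 (adjusted p = 0.00439), 1.80 in MDA-MB-157 (adjusted p = 0.000225) and 1.59 in MDA-MB-468 (adjusted p = 0.000887), and S100A12, a neutrophil protein, by 1.79 in SUM149 (adjusted p = 8.52e-05). CSF1R, the macrophage growth factor receptor, fell by 1.57 on the log2 scale in MDA-MB-231 (adjusted p = 0.00219) and rose by 1.06 in MDA-MB-468 (adjusted p = 0.0612). S100A8, a calcium-binding alarmin, was detected in BT549 with WHF at 6.39 and not without, at 5.08 (adjusted p = 0.0153). The number of the 16 genes detected on both arrays was 7 with WHF and 7 without in BT549, 8 and 7 in MDA-MB-468 and in SUM149, 5 and 4 in MDA-MB-157, and 4 and 6 in MDA-MB-231. The mean log2 signal over the 16 genes was 7.83 to 7.96 per WHF-treated array and 7.47 to 7.57 per untreated array of SUM149, 7.42 to 7.47 and 6.91 to 7.14 in MDA-MB-468, and 6.21 to 6.28 and 6.05 to 6.06 in BT549. It was 6.14 to 6.20 and 5.96 to 6.0 in MDA-MB-157 and 6.25 to 6.35 and 6.36 to 6.37 in MDA-MB-231. PTPRC was not detected with or without WHF in any line, while CD14, CD68 and FCGR3B were detected in both treatments of every line.

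Around the ligands and receptors, little else of the family passed the detection filter. Of 14 other family members and receptors, 2 were tested, the decoy-like receptor SIGIRR and the IL-18 binding protein IL18BP, and neither was called in any line. SIGIRR was lower in WHF-treated SUM149, at 6.03 ± 0.02, against 6.78 ± 0.02 untreated (SD, n = 2 each), short of 2-fold (adjusted p = 0.0222). IL1R2, the decoy receptor for IL-1, was detected on 0 of 20 arrays. Others were detected on some arrays but below the filter, the most being 8 for IL1RAPL1, 6 for IL36G, 5 for IL18R1 and 4 for IL1RL1. Of 21 genes of processing and release, 14 were tested and 1 was called, in SUM149, where 3.6% of all genes were called higher and 7.76% lower. This was SERPINB1, an inhibitor of neutrophil proteases, which stood at 13.07 ± 0.35 with WHF and 10.86 ± 0.06 without (change 2.20, adjusted p = 2.44e-06). The tested caspase genes of the list were called in no line, with all changes under 2-fold. In SUM149 the changes were -0.752 for CASP1 (adjusted p = 0.004), -0.915 for CASP4 (adjusted p = 0.00258) and -0.95 for CASP8 (adjusted p = 0.0389). CASP1 rose by 0.928 in MDA-MB-468 (adjusted p = 0.00553), and the CASP8 change in MDA-MB-231 was -0.978 (adjusted p = 0.0435). In BT549 CASP1 fell and CASP4 rose, and in MDA-MB-157 CASP1 rose, each by less. The list's median change lay between -0.13 in SUM149 and 0.25 in MDA-MB-468.

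Of 20 genes of receptor signalling, 19 were tested. In BT549, 3 were called higher and 1 lower (4.78% and 7.21% of all genes), in SUM149 1 and 2 (3.6% and 7.76%), in MDA-MB-231 2 and 0 (2.69% and 4.51%), in MDA-MB-157 1 and 0 (1.19% and 1.69%) and in MDA-MB-468 0 and 0 (0.995% and 0.944%). MYD88, the adaptor next to the receptor, fell by 2.19 on the log2 scale in BT549 (7.38 ± 0.12 with WHF and 9.57 ± 0.37 without, adjusted p = 3.85e-06) and by 1.55 in SUM149 (adjusted p = 7.09e-05). IRAK2, a kinase of the same complex, rose by 1.82 in BT549 (adjusted p = 7.4e-05), by 1.31 in MDA-MB-157 (adjusted p = 0.00547) and by 1.12 in SUM149 (adjusted p = 0.00348). IRAK3, an inhibitory relative, rose in MDA-MB-231 by 1.08 (adjusted p = 0.00369), as did TAB3, a partner of the kinase TAK1, by 1.28 (adjusted p = 0.00873). Both also rose in BT549, where they were detected in WHF-treated cultures alone, and TOLLIP, an adaptor that restrains the pathway, fell by 1.16 in SUM149 (adjusted p = 0.00662). The list's median change was between -0.01 in SUM149 and 0.14 in BT549, beside medians of -0.04 to 0.01 for all 11864 genes.

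The genes known as targets of IL-1 also answer to other inflammatory signals. Of 28 listed, 24 were tested. This list, like the other gene lists, was chosen with earlier results of these data known. Its counts beside the shares of all genes are therefore a description. In BT549, 19 were called higher and 0 lower (4.78% and 7.21% of all genes), with a median change of 2.0. In MDA-MB-157, 13 were higher and 0 lower (1.19% and 1.69% of all genes), with a median of 1.12. In MDA-MB-468, 3 were higher and 0 lower (0.995% and 0.944% of all genes), with a median of 0.20. In SUM149, 4 were higher and 5 lower (3.6% and 7.76% of all genes), with a median of -0.35, and in MDA-MB-231, 2 were higher and 5 lower (2.69% and 4.51%), with a median of -0.41. The median over all genes was -0.02, 0.01, -0.01, -0.04 and -0.03 in these lines, in the same order.

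In BT549 the targets with the largest moderated statistic were CCL20, a chemokine for dendritic cells and T cells (12.43 ± 0.37 with WHF and 7.55 ± 0.20 without, change 4.88, adjusted p = 3.85e-07), CXCL8, which draws neutrophils (change 3.36, adjusted p = 9.8e-07), the IL-6 family cytokine LIF at 2.50 and NFKBIA, the inhibitor of NF-κB, at 2.01. In MDA-MB-157 they were CXCL8 (12.49 ± 0.40 with WHF and 7.76 ± 0.15 without, change 4.73, adjusted p = 9.4e-08), the mitochondrial superoxide dismutase SOD2 at 2.90, the RNase gene ZC3H12A at 2.57 and BCL3, a nuclear partner of NF-κB, at 1.97. MDA-MB-157 had IL1A and IL1B above background on no array and had IL1R1 higher with WHF.

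The lines that had both ligands in untreated cells gave a mixed picture. In SUM149 BCL3 rose by 1.66 (adjusted p = 2.49e-05), PTGES, the terminal prostaglandin E2 synthase, by 2.64 (adjusted p = 0.000172) and MMP9 by 1.41. LIF fell by 1.61 on the log2 scale. Also called lower in SUM149 were IL6 at -2.38, CXCL2 at -2.14, PTGS2 at -1.97 and MMP1 at -1.29, while TNFAIP2 was called higher at 1.30. In MDA-MB-231 LIF rose by 1.66 (adjusted p = 0.000359), whereas CCL2, a monocyte chemokine, fell by 1.99 (7.14 ± 0.86 with WHF and 9.13 ± 0.49 without, adjusted p = 0.000983), CXCL1 by 1.33 and TNFAIP2 by 1.69. In MDA-MB-468 the called targets were BCL3 at 1.19, PTGES at 2.16 and the siderophore-binding LCN2 at 1.09. LIF changed in opposite directions in MDA-MB-231 and SUM149, although this pair was not tested against each other. WHF-treated and untreated arrays are shared by the member genes and these targets, so the side-by-side values are a description of the same cultures.

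**Figure D5:**
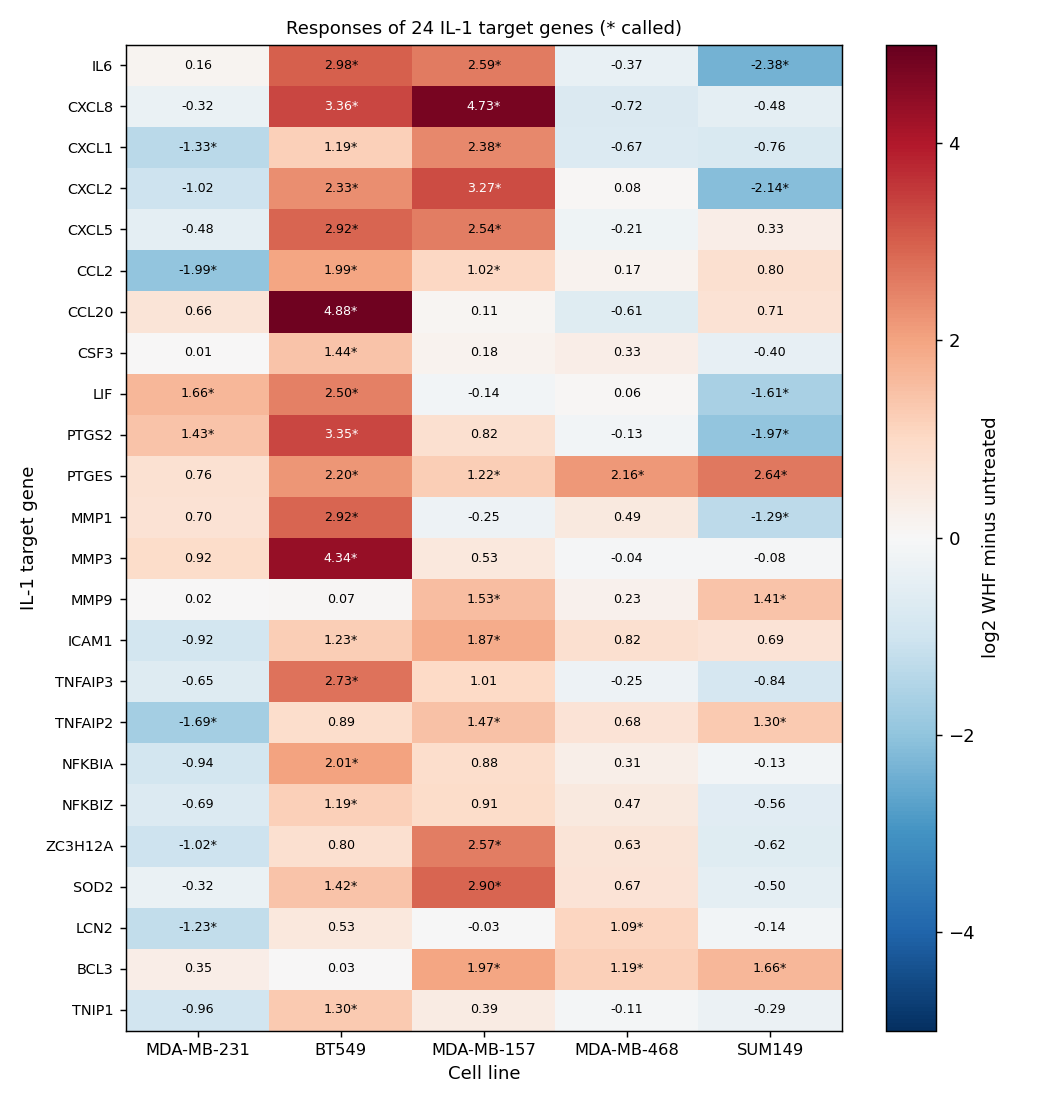
Fitted log2 change, WHF-treated minus untreated, of the 24 tested IL-1 target genes (rows) in the 5 lines (columns), with red for higher and blue for lower in WHF-treated cells and an asterisk for a called response. BT549 has 19 and MDA-MB-157 has 13 called higher, and MDA-MB-231 and SUM149 have 5 called lower each. The list was chosen with earlier results of these data known.

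Across the 10 group means, the probes whose pattern was most like IL1B were those of STX11, a syntaxin (Pearson r = 0.979), the granulocyte growth factor CSF3 (r = 0.970), which is also in the list of targets, and ECM1 (r = 0.966). For IL1R1 they were UMAD1 (r = 0.960), PRELID2 (r = 0.957) and ABCB8 (r = 0.954), for the soluble-form IL1RAP probe AGTRAP (r = 0.991), FBXW2 (r = 0.976) and LOC283788 (r = 0.973), and for IL18 INIP (r = 0.896), C2orf69 (r = 0.880) and IL10 (r = 0.859). Lines, chips and arrays are common to both sides of each of these correlations, which describe these groups only.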

How the data were processed

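The authors scanned Illumina HT-12 beadchips and extracted the average bead signal, a fluorescence intensity without normalisation, with BeadStudio. They deposited this intensity and the detection p-value of each probe on each of the 20 arrays. The other deposited table has the same arrays' intensity, quantile-normalised by the authors, and served as an alternative. The probe annotation is of another version of the array than the methods name, and 30112 probes had 1 gene symbol, 8 several and 17199 none.

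Bead signals were background-corrected here with normexp and the detection p-values in limma 3.58.1 (R 4.3.3), followed by quantile normalisation and log2 with an offset of 16. Groups came from the sample labels. Responses were tested in a fit of 10 groups of 2 arrays. Whether lines responded unequally was tested with an F test of their interaction with WHF. The mean over the 5 lines was tested on the A and B averages with the line as a block. Untreated lines were compared by an F test and in pairs, and probes within a gene by diffSplice. All p-values are two-sided except those of F tests. They were Benjamini-Hochberg adjusted over all probes of a fit, or over all genes for diffSplice. Those over the 5 lines measure the spread of the responses between lines, and all others only the spread between replicate cultures. The number of arrays limits precision. Replicate arrays shared between 0 and 2 exactly equal bead signals of 47319, so none was taken as a repeat deposit.

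The methods were tested on simulated data. Members and lists were chosen with earlier results of these data known. Every member probe is named. From each list, 1 probe per gene was used (the one with the highest mean among tested probes), and up to 4 called genes per line were named by the moderated t. For likeness, the 3 genes with the highest Pearson r were named. Lists were line identity, leukocytes, other family members and receptors, processing and release, receptor signalling and target genes. Promoter windows from RefSeq matched 6 of the 7 members. Alternatives were other normalisations, offsets, filters, a variance trend, a replicate block and leaving out arrays or lines.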

Additional observations from a re-analysis of the deposited data

Results flagged for a closer look

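The responses to WHF were unequal among the 5 lines, in an F test of the interaction of line and WHF, for 5 member probes: IL1B (F = 12.7), IL1R1 (F = 15.6), both tested IL1RAP probes (F = 21.5 for ILMN_1686884 and 9.02 for ILMN_2357062) and IL1RN ILMN_1774874 (F = 26.7, in the fit over all probes). The test passed for 41.1% of all tested probes and for 20.8% of all probes of the table. For IL1B, IL1R1 and IL1RN the test includes lines in which the probe was at background on every array, while both IL1RAP probes were detected on all arrays. IL1B reached the filter only with the 2 WHF-treated BT549 arrays, so its place among the tested probes is no support.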

How the results depend on the processing

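Of the 128 alternatives tried for the 10 called member responses, 108 kept the direction and the call, 20 lost the call and 0 reversed. The calls of IL1B and IL1RN in SUM149, IL1B in BT549, the membrane-form IL1RAP probe in SUM149 and the soluble-form probe in MDA-MB-157 were kept under every alternative run. In the authors' normalised intensities, and with no background correction, the change fell under 2-fold for the membrane-form probe in BT549 (-0.894 and -0.895), the soluble-form probe in BT549 (0.942 in both), IL1R1 in MDA-MB-157 (0.765 in both) and MDA-MB-468 (0.579 in both) and IL1RN in MDA-MB-468 (0.648 in both), each at an adjusted p under 0.1. With an offset of 50, IL1R1 in MDA-MB-157 (0.965) and MDA-MB-468 (0.826) and IL1RN in MDA-MB-468 (0.866) did so, and with median scaling the soluble-form probe in BT549 (0.971). Both settings that keep the background, and the larger offset, shrink the changes of dim probes by construction. Leaving out 1 array at a time gave 0.852 to 1.306 for the soluble-form probe in BT549, 0.986 to 1.268 for IL1R1 in MDA-MB-157, 0.803 to 1.368 for IL1R1 in MDA-MB-468 and 0.846 to 1.284 for IL1RN in MDA-MB-468.

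Tested member probes called in MDA-MB-231 were 3 with no fold minimum and 0 to 1 with 1 array left out (1 without untreated B). They were 1 in BT549 in the authors' intensities and with no background correction, 1 in MDA-MB-157 and 0 in MDA-MB-468 under these settings and the offset of 50, 1 to 2 in MDA-MB-157 with 1 array left out (1 without WHF A) and 0 to 1 in MDA-MB-468 (0 without untreated A or WHF A). Over all tested probes, the calls in the authors' intensities, with no background correction and with no fold minimum were 520, 520 and 5232 in MDA-MB-231 (main 1406), 1108, 1107 and 7365 in BT549 (main 2308), 228, 228 and 1888 in MDA-MB-157 (main 507), 140, 140 and 1305 in MDA-MB-468 (main 340) and 912, 911 and 6860 in SUM149 (main 2205). With an offset of 50 they were 852 in MDA-MB-231, 214 in MDA-MB-468 and 1443 in SUM149. With 1 array left out they ranged from 307 (without WHF A) to 609 in MDA-MB-157, from 224 (without WHF A) to 433 in MDA-MB-468 and from 1711 to 3376 (without WHF A) in SUM149.

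Changes of sign were seen in uncalled values alone. With 1 array left out, the soluble-form IL1RAP probe ranged from -0.061 to 0.377 in MDA-MB-468 and from -0.191 to 0.028 in SUM149, IL18 in SUM149 from -0.139 to 0.058, IL33 in SUM149 from -0.358 to 0.294, ILMN_1793870 in SUM149 from -0.085 to 0.981 and the IL1RAP probe difference in MDA-MB-468 from -0.216 to 0.058 (0.051 without WHF B). With median scaling, IL18 was 0.048 in SUM149 and, untreated, -0.106 in MDA-MB-468 minus SUM149. The mean IL1R1 change was -0.108 without MDA-MB-157 and -0.098 without MDA-MB-468.

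Over the 5 lines, 16 probes were called, against 35 with an offset of 50, 0 with no filter, 2 in the B arrays alone, and 0 without MDA-MB-231, 0 without BT549, 6 without MDA-MB-157 and 2 without SUM149. The letters share only a name in the labels. The paper describes paired treated and untreated cultures and a second set prepared independently, with 5 fluids pooled per experiment. Whether A and B are these sets, with different pools, is not stated in the labels. The correlation of same-letter deviations was 0.0399 in MDA-MB-231, 0.0589 in BT549, 0.299 in MDA-MB-157, 0.226 in MDA-MB-468 and 0.154 in SUM149. As an alternative, each pair of line and letter was taken as a block. Over the 5 lines this fit counts cultures A and B of a line as separate units, whereas the unit of the main fit is the line. It called 5369 probes and 2 member probes (IL1B at 1.183, adjusted p = 0.0343, and the soluble-form IL1RAP probe at 0.713, adjusted p = 0.024). These calls are therefore not comparable with the 16 of the main fit. Within a line, no call of a member changed with this block. With 2 arrays a group, small changes and those of probes near background are measured poorly.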
